A study of Monodelphis domestica with 6 samples.

Results

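NOTCH receptors, their Delta-like (DLL) and Jagged (JAG) ligands and the HES and HEY target genes were examined in neonatal skin fibroblasts (neoSFs) of the grey short-tailed opossum, Monodelphis domestica, and in the induced pluripotent stem cells (monoiPSCs) reprogrammed from them. The genes were taken by symbol from a list of 10, which are NOTCH1, NOTCH2, NOTCH3, DLL1, DLL3, DLL4, JAG1, JAG2, HES1 and HEY1, and 9 of the 35665 genes in the deposited tables matched. HES1 was not analysed here. NOTCH signalling passes between touching cells. A ligand on the surface of the sending cell pulls on a receptor of its neighbour, the receptor is cut by an ADAM protease and then by gamma-secretase, and the freed intracellular domain moves to the nucleus, where it joins RBPJ and MAML proteins to switch on HES and HEY repressor genes. The pathway is best known for letting neighbouring neural progenitors take different fates, for the somite clock of the presomitic mesoderm and for vessel sprouting, and in skin it acts in keratinocytes and in the dermal fibroblast lineage.

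The neoSF group held 2 libraries, 1 each from wild-type cultures of the inbred strains FD2M1 and LSD1, which were grown in serum-containing fibroblast medium from female pups aged 10 days. The monoiPSC group held 4 libraries, with a line from FD2M1 and a line from LSD1, each sampled at passages 15 and 25. These wild-type lines had been reprogrammed with episomal plasmids encoding human OCT4, SOX2, NANOG, KLF4, LIN28 and cMYC, and were kept without feeders in medium with human LIF, basic FGF and the ROCK inhibitor Y27632. Each strain contributed 1 fibroblast culture, and the passages of a line are taken here as repeat samples of that line, so p-values measure the spread between these libraries. The paper also calls the 4 samples clones and does not state whether both passages of a strain came from 1 clone. Passage and clone may therefore not be separable. The neoSF libraries consisted of in-house 50 bp single-end reads, whereas a company sequenced 150 bp read pairs for the monoiPSCs, so that cell type, culture medium and sequencing cannot be told apart.

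The total count was 14278794 and 16982978 in the neoSF libraries and 28684754 to 35564261 in the monoiPSC libraries. Values are given as the normalized read count (NRC), which is the count scaled by the DESeq factor of its library, and 3 counts correspond to an NRC of 4.75 to 5.85 in neoSFs and 1.55 to 1.88 in monoiPSCs. The NRC is not corrected for gene length, so the levels of different genes were not ranked against each other. The cell types named in the labels were checked against their markers. All 9 fibroblast markers in the tables were lower in every monoiPSC library than in either neoSF library, and all 7 pluripotency markers were higher. Of all genes tested as described below, 37.1% were lower and 36.1% higher in this way. Of the 7 pluripotency markers, 0 reached an NRC of 20 in both neoSF libraries. They entered through the monoiPSCs alone, so that count and share do not cover the same kind of genes.

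To be tested, a gene had to reach an NRC of 20 in each neoSF library or in each of the 4 monoiPSC libraries. It counted as differentially expressed (DE) when edgeR's quasi-likelihood test gave an adjusted p (Benjamini-Hochberg) no higher than 0.05 together with a change of 2-fold or more. Of the 9 genes, 8 passed this filter, 6 through both groups and DLL3 and HEY1 through the monoiPSCs alone, while DLL4 passed in neither group. In the monoiPSCs, NOTCH1, NOTCH3, DLL1, DLL3, JAG2 and HEY1 rose, NOTCH2 fell and JAG1 was not DE. Across all 13072 genes tested, 24.3% were DE and higher and 21.6% were DE and lower in the monoiPSCs. The median log2 fold change of the 8 tested genes was 1.70, beside 0.08 for all genes tested. It was the same with DLL3 entered at its fitted value or at its lower limit. DLL3 and HEY1 entered through the group where they are high, which can raise both the number of higher calls and this median. In these bulk libraries, fewer cells that express a gene and less RNA of that gene per cell cannot be told apart.

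**Figure D1:**
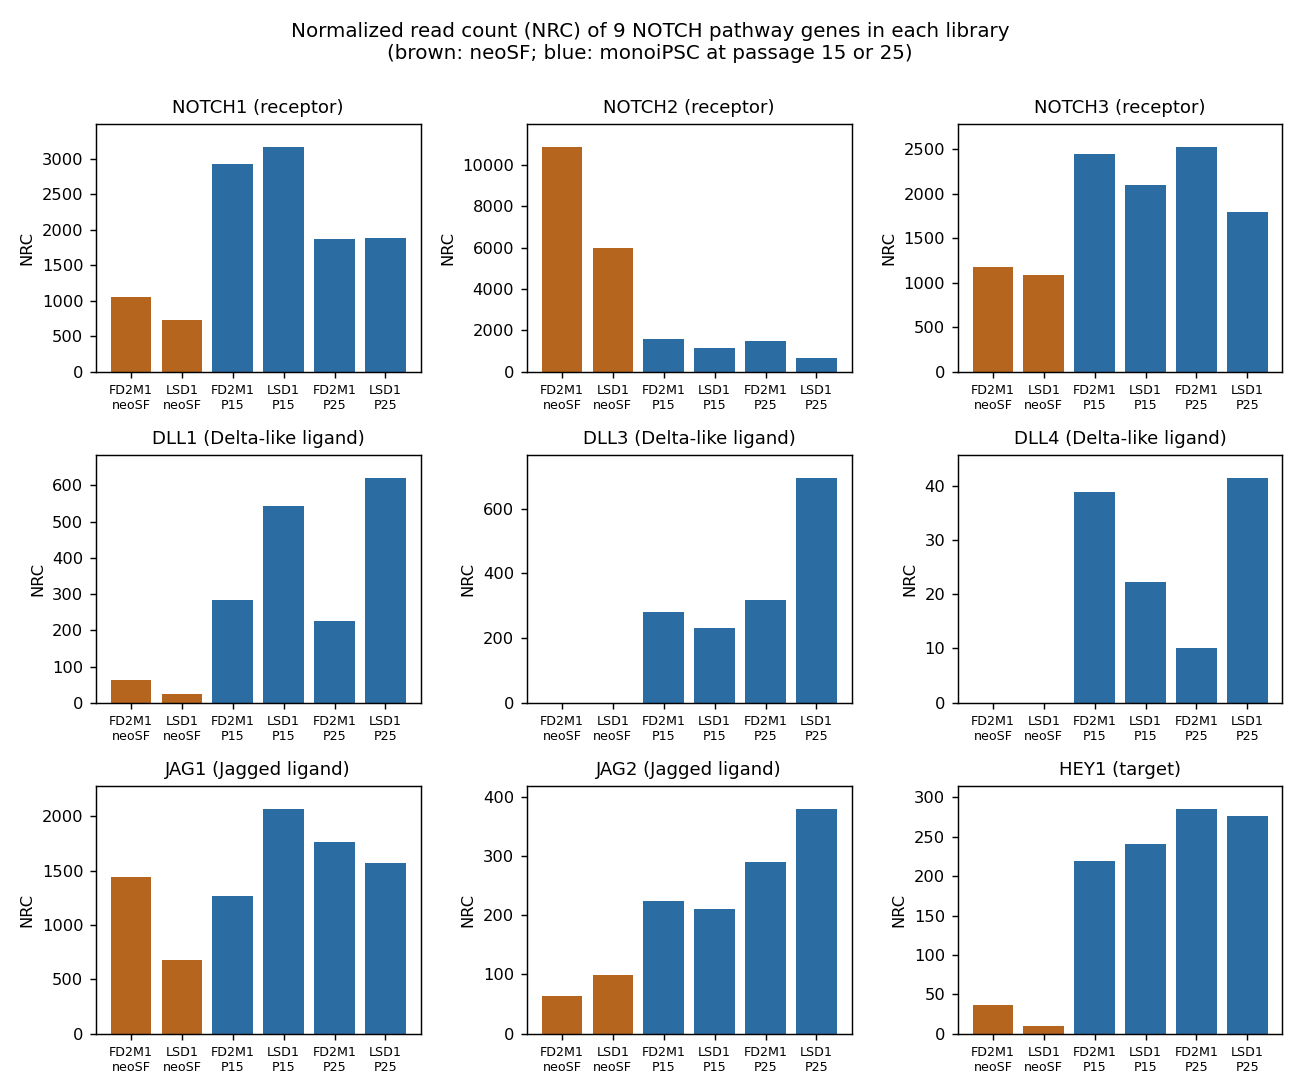
Bars give the NRC (linear axis from 0, a separate scale per gene) in the 2 neoSF libraries (brown) and the 4 monoiPSC libraries (blue, P15 and P25 for passages 15 and 25). NOTCH2 is the single gene with both neoSF bars above all monoiPSC bars, DLL3 and DLL4 have no bar in neoSFs, and the bars of the groups overlap for JAG1.

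NOTCH2 was the receptor that fell. Its NRC was 10890 in neoSFs of FD2M1 and 6002 in those of LSD1. In the monoiPSCs the NRC of NOTCH2 was 1596 and 1507 for FD2M1 (passage 15, then passage 25) and 1132 and 676 for LSD1. All 4 monoiPSC libraries therefore lay below both neoSF libraries, and the lowest was LSD1 at passage 25. The mean NRC of NOTCH2 went from 8444 ± 3454 (SD, n = 2) to 1228 ± 419 (SD, n = 4), a log2 fold change of -2.68 (SE, the standard error, 0.36, adjusted p = 0.000622, edgeR). NOTCH2 (chromosome 2 of the MonDom5 assembly) encodes a receptor that is widely expressed in mesenchymal cells. Of all genes tested, 37.1% had all 4 monoiPSC libraries below both neoSF libraries.

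NOTCH1 (chromosome 1), the receptor best studied in neural progenitors, T cells and keratinocytes, moved the other way. Its NRC was 1049 and 735 in the FD2M1 and LSD1 neoSFs. In the monoiPSCs at passage 15 the NRC of NOTCH1 was 2927 for FD2M1 and 3173 for LSD1, and at passage 25 it was 1871 and 1882. Every monoiPSC library was above both neoSF libraries, and within the monoiPSCs both lines were lower at passage 25. The log2 fold change of NOTCH1 between the groups was 1.56 (SE 0.30, adjusted p = 0.00326, edgeR).

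NOTCH3 (chromosome 3) encodes the receptor known from vascular smooth muscle and pericytes. The NRC of NOTCH3 was 1176 in the FD2M1 and 1092 in the LSD1 neoSFs. It was 2440 and 2527 in the FD2M1 monoiPSCs at passages 15 and 25, and 2095 and 1790 in the LSD1 monoiPSCs. The groups did not overlap, and the libraries of a group lay close together, at 1134 ± 59.1 (SD, n = 2) and 2213 ± 338 (SD, n = 4). The log2 fold change of 1.06 (SE 0.18, adjusted p = 0.00196, edgeR) was just past the 2-fold threshold. It fell under that threshold, at 0.95 with an adjusted p of 0.00644, when limma was run on the deposited log2 values, and at 0.99 without the FD2M1 monoiPSCs at passage 25.

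These opposite changes altered the makeup of the receptor reads, a measure within a library that does not depend on the scaling between libraries. NOTCH2 gave 83.0% of the summed NOTCH1, NOTCH2 and NOTCH3 reads in the FD2M1 neoSFs (95% Wilson interval 82.1 to 83.9, of 6721 reads) and 76.7% in the LSD1 neoSFs (75.5 to 77.8, of 4942 reads). In the monoiPSCs the share of NOTCH2 was between 15.6% in LSD1 at passage 25 (14.8 to 16.3, of 8437 reads) and 25.5% in FD2M1 at passage 25 (24.7 to 26.4, of 9410 reads). The share of NOTCH1 reads went from 8.70% ± 0.983 (SD, n = 2) to 41.6% ± 7.42 (SD, n = 4), and that of NOTCH3 from 11.4% ± 3.49 (SD, n = 2) to 37.9% ± 4.84 (SD, n = 4). For each of the 3 receptors the shares of the groups did not overlap. Although 2 of the 3 receptors rose, their summed NRC was lower in the monoiPSCs, at 4347 to 6962 against 7829 and 13110 in the neoSFs. Unlike the shares, these sums depend on the scaling between libraries. As reads of the total count, they were 6721 of 14278794 in the FD2M1 and 4942 of 16982978 in the LSD1 neoSFs. In monoiPSCs they ran from 8437 of 35564261 (LSD1 at passage 25) to 12406 of 31839325 (FD2M1 at passage 15). On that scale the groups overlapped. The intervals cover counting error only, and the shares count reads and not molecules, since the receptors were not corrected for length. Given as a description, the shares were not tested.

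**Figure D2:**
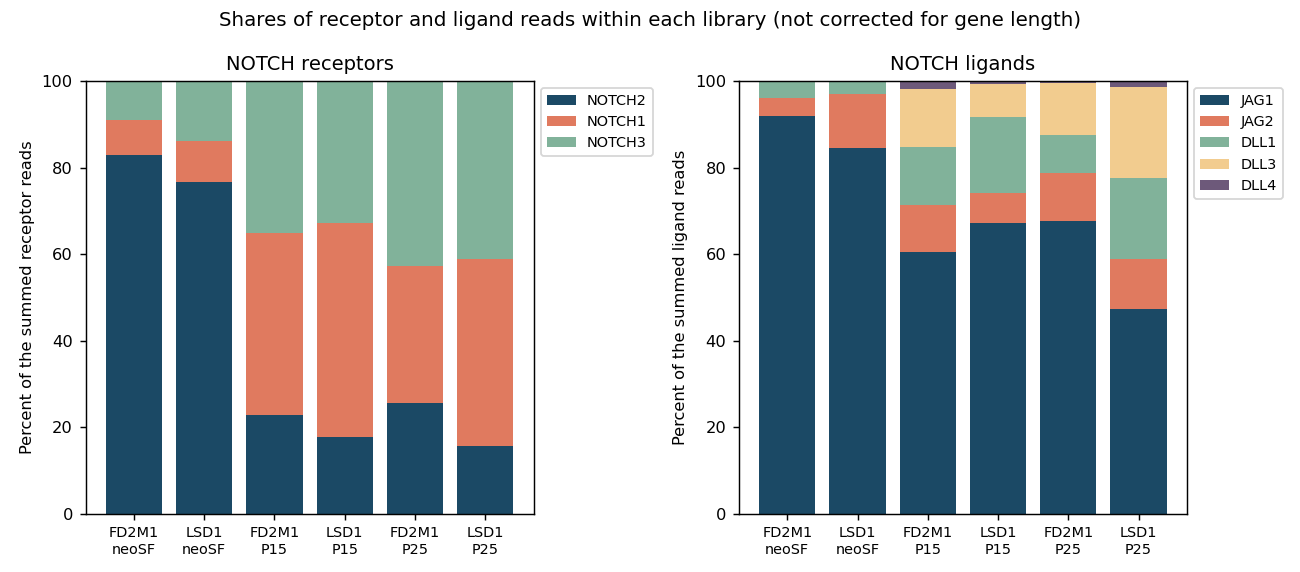
Stacked bars give the percent of the summed reads of the 3 receptors (left) and the 5 ligands (right) that each gene took in each library, without a correction for gene length. NOTCH2 takes 76.7% to 83.0% of the receptor reads in neoSFs and 15.6% to 25.5% in monoiPSCs, and DLL3 and DLL4 appear among the ligand reads of the monoiPSCs only.

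Of the Delta-like ligands, DLL1 activates receptors on neighbouring cells and marks newly formed neural precursors and the presomitic mesoderm. The NRC of DLL1 (chromosome 2) was 61.8 in neoSFs of FD2M1 and 25.1 in those of LSD1, from 32 and 16 counts. The monoiPSC values were 283 and 226 for FD2M1 (passage 15, then passage 25) and 543 and 621 for LSD1. All monoiPSC libraries were above both neoSF libraries, and both LSD1 libraries were above both FD2M1 libraries. Between the groups DLL1 rose by 3.37 on the log2 scale (SE 0.62, adjusted p = 0.00252, edgeR). With so few counts in neoSFs the size rested on the reference library, and the log2 fold change was 4.13 without the FD2M1 neoSFs and 2.85 without the LSD1 neoSFs.

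DLL3 is the divergent member of the ligand family, which acts mainly inside the cell, where it dampens NOTCH signalling, and is known from the presomitic mesoderm and from neuronal and neuroendocrine precursors. DLL3 (chromosome 4) had 0 counts in both neoSF libraries after rounding. Its NRC in the monoiPSCs was 281 and 316 for FD2M1 (passage 15, then passage 25) and 231 and 696 for LSD1. DLL3 was thus measurable in every monoiPSC library and highest in LSD1 at passage 25. Against these 0 counts the edgeR fit gave DLL3 a log2 fold change of 12.06 (SE 1.33, adjusted p = 0.000448). The lower limits that follow were not themselves tested. With neoSFs set to the floor of 3 counts in the library where these weigh most, DLL3 was at least 69.8-fold higher in monoiPSCs on TMM-scaled counts. On the NRC scale it was at least 65.1-fold higher. These limits take the mean of the 4 libraries, and for the lowest library the limit was 42.4-fold on TMM-scaled counts. Among the 806 and 509 ligand reads of the neoSFs, the floor of 3 reads corresponds to a share of 0.372% and 0.589%, and the upper bound of the 95% Wilson interval for 0 reads is 0.474% and 0.749%, while in the monoiPSCs that share was 7.50% to 21.0%.

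DLL4 (chromosome 1), the ligand of endothelial tip cells, stayed low. It also had 0 counts in both neoSF libraries, and in the monoiPSCs it had 69 and 16 counts for FD2M1 (passage 15, then passage 25) and 42 and 80 for LSD1. These counts correspond to an NRC of 38.8, 10.0, 22.2 and 41.5 in the same order. DLL4 was above both neoSF libraries in all 4 monoiPSC libraries, but FD2M1 at passage 25 was under an NRC of 20, so the gene was not among those tested. Its mean in the monoiPSCs was at least 5.14-fold above the neoSF floor of 3 counts on TMM-scaled counts, and in the lowest library, FD2M1 at passage 25, it was at least 1.83-fold above. Without the expression filter DLL4 was DE and higher (adjusted p = 0.00499, edgeR), in a fit where 21% of 17674 genes were DE and higher.

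The Jagged ligands differed from each other. JAG1 (chromosome 1), a ligand with broad roles in mesenchyme and vessel walls, had an NRC of 1446 in neoSFs of FD2M1 and 682 in those of LSD1. In the monoiPSCs the NRC of JAG1 was 1270 and 1762 for FD2M1 (passage 15, then passage 25) and 2072 and 1568 for LSD1. The groups overlapped, because FD2M1 at passage 15 was below the FD2M1 neoSFs. The log2 fold change of JAG1 was 0.75 (SE 0.32, adjusted p = 0.0784, edgeR), and the choice of neoSF library moved it to 1.38 without FD2M1 (adjusted p = 0.00955) and 0.31 without LSD1 (adjusted p = 0.393). An exact two-sided permutation test of the 6 libraries gave p = 0.133 for JAG1, whereas the smallest p that 4 libraries against 2 allow is 0.0667.

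JAG2 (chromosome 1), a ligand with known roles in epithelia and limb buds, had an NRC of 63.4 in neoSFs of FD2M1 and 99.8 in those of LSD1. Across the monoiPSCs JAG2 had an NRC of 224 and 290 for FD2M1 (passage 15, then passage 25) and 210 and 380 for LSD1. All monoiPSC libraries were above both neoSF libraries, and both passage 25 libraries were above both passage 15 libraries. JAG2 rose by 1.84 on the log2 scale (SE 0.37, adjusted p = 0.00384, edgeR). Among the ligand reads JAG1 had the share 88.2% ± 5.23 (SD, n = 2) among neoSFs, as against 60.8% ± 9.48 (SD, n = 4) among monoiPSCs, and the share of JAG2 overlapped between the groups, at 4.09% and 12.4% against 6.82% to 11.5%. The share of DLL1 was 3.14% and 3.97% in neoSFs and 8.67% to 18.8% in monoiPSCs. In contrast to the receptors, the summed NRC of the 5 ligands was higher in the monoiPSCs, at 2097 to 3306 against 806 and 1571 in neoSFs.

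Of the target genes, HEY1 encodes a basic helix-loop-helix repressor that NOTCH induces directly in many cell types. The NRC of HEY1 (chromosome 3) was 36.7 in the FD2M1 and 10.3 in the LSD1 neoSFs, from 19 and 6 counts. It was 219 and 286 in the FD2M1 monoiPSCs at passages 15 and 25, and 241 and 277 in the LSD1 monoiPSCs. HEY1 was above both neoSF libraries in all monoiPSC libraries and, of the 9 genes, varied least between them, with the highest library 1.30 times the lowest. HEY1 rose by 3.58 on the log2 scale (SE 0.53, adjusted p = 0.000905, edgeR), and its log2 fold change was 4.83 without the FD2M1 neoSFs and 2.88 without the LSD1 neoSFs. With HEY1, 7 of the 9 genes had every monoiPSC library above both neoSF libraries. Of these 7, DLL3 and HEY1 passed the filter through the monoiPSCs alone and DLL4 did not pass it, so this count is not over the same kind of genes as the 36.1% of all genes tested for which it held. Each of these 7 genes and NOTCH2 gave the smallest permutation p of 0.0667, which largely restates that their groups did not overlap. The share of all genes that reach this p was not computed, and the permutation treats the passages of a line as separate units.

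**Figure D3:**
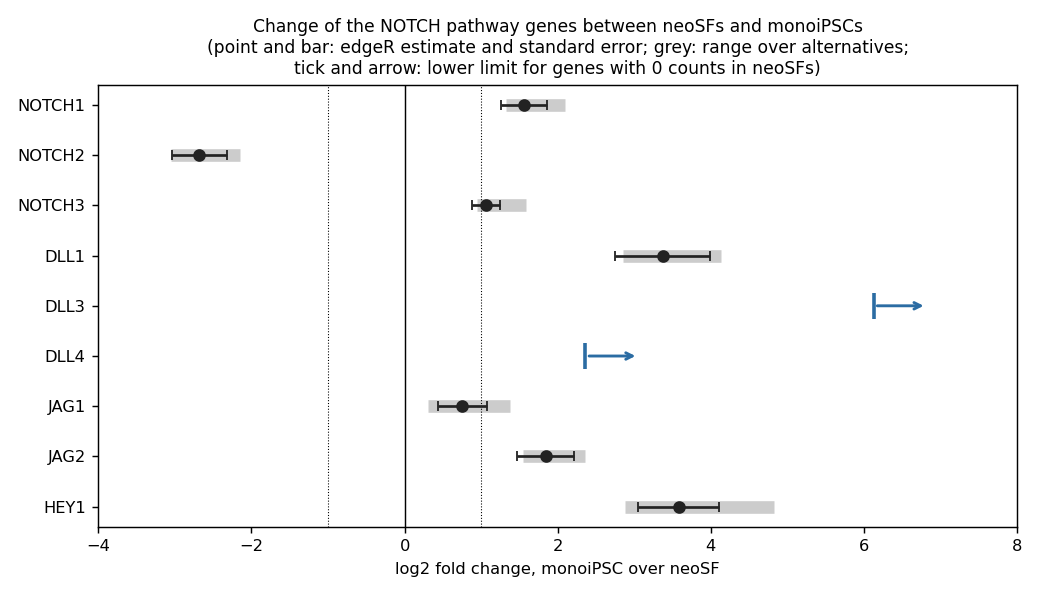
Points give the log2 fold change of monoiPSCs over neoSFs from edgeR with its standard error, grey bars the range over the alternative fits, and the blue ticks with arrows the lower limits of DLL3 and DLL4, which had 0 counts in neoSFs. The dotted lines mark a 2-fold change: NOTCH3, at 1.06, sits beside it, JAG1, at 0.75, lies inside, and NOTCH2, at -2.68, is the single gene to the left of 0.

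Within the monoiPSCs the genes differed in how far the libraries spread. The ratio of the highest to the lowest NRC was 4.13 for DLL4, 3.01 for DLL3, 2.75 for DLL1 and 2.36 for NOTCH2, and between 1.30 and 1.81 for the other 5 genes, while the median over the 12252 genes expressed in monoiPSCs was 1.47 and the 90th percentile 2.53. The ligands DLL1, DLL3 and DLL4 and the receptor NOTCH2 thus held the widest ratios of the 9 genes. These ratios of the Delta-like ligands include counting error, which weighs most for DLL4.

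When passage 25 was compared with passage 15 in a fit that included the strain, edgeR called 0 of the 8 tested genes and 0% of 12252 genes, and DESeq2 called 0 of the 8 genes and 0.939% of all. NOTCH1 was the single gene of the 8 with an unadjusted p under 0.05, beside 9.35% of all genes. Its log2 fold change of passage 25 over passage 15 was -0.71 (SE 0.15, adjusted p = 0.286, edgeR), with lower values at passage 25 in both lines. Like NOTCH1, 33.9% of all genes had both passage 25 libraries on the same side of both passage 15 libraries. DLL3 had a log2 fold change of 0.87 (SE 0.36, adjusted p = 0.534, edgeR) that rested on LSD1 at passage 25, since it was 0.30 without that library. Without FD2M1 at passage 25 DLL3 was called (log2 fold change 1.42, adjusted p = 0.0361), in a fit without the strain covariate and with passage 25 represented by LSD1 alone, which was assumed to vary like the passage 15 libraries.

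Between the LSD1 and the FD2M1 line, with passage as a covariate, edgeR again called 0 of the 8 genes and 0% of all genes. DLL1 and NOTCH2 had an unadjusted p under 0.05, beside 14.2% of all genes. The NRC of DLL1 was above in both LSD1 libraries, with a log2 fold change of 1.20 (SE 0.23, adjusted p = 0.15, edgeR), and DESeq2 called this difference (adjusted p = 0.0102), as it called 0.979% of all genes higher in LSD1. The NRC of NOTCH2 was lower in LSD1 at both passages, with a log2 fold change of -0.82 (SE 0.21, adjusted p = 0.226, edgeR). The neoSFs showed the same order of the strains for NOTCH2, at an NRC of 6002 in LSD1 and 10890 in FD2M1, and the opposite order for DLL1, at 25.1 and 61.8, with 1 library per strain and no test.

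**Figure D4:**
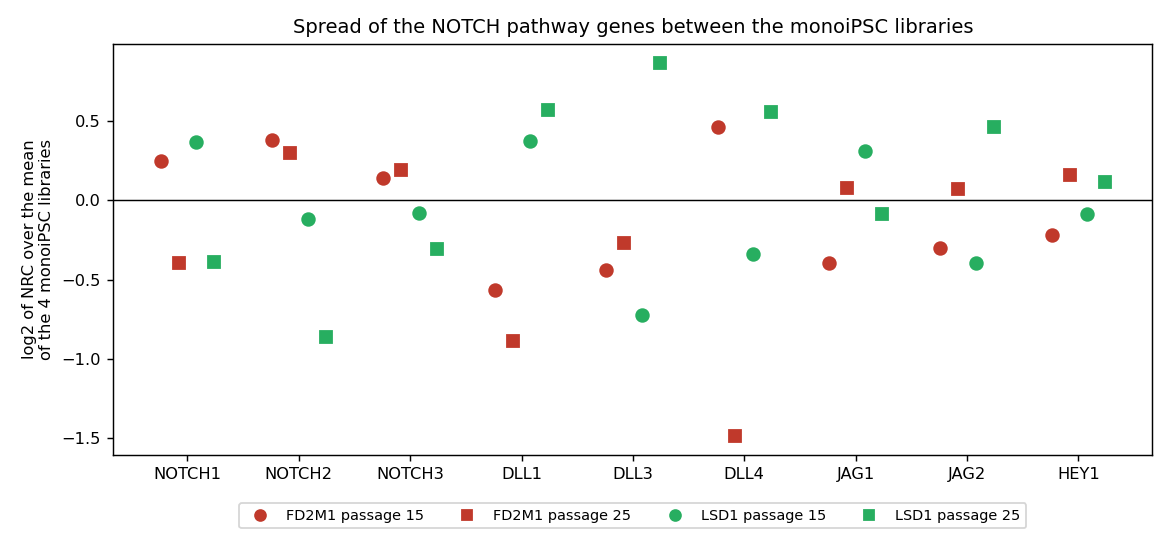
Each symbol gives the log2 of the NRC in 1 monoiPSC library over the mean NRC of the 4 libraries (red: FD2M1; green: LSD1; circles: passage 15; squares: passage 25). Both LSD1 symbols lie above both FD2M1 symbols for DLL1 and below them for NOTCH2, both passage 25 symbols lie below both passage 15 symbols for NOTCH1, and DLL4 has the widest spread.

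The rest of the pathway was described with a list of 67 genes in 6 roles, of which 61 were in the tables and 56 could be tested. Of these, 13 were DE and higher in the monoiPSCs, 5 were DE and lower and 38 were not DE, and the median log2 fold change was 0.24. In all, 18 of 56 were DE, beside 45.9% of all genes tested. The counts by role that follow stand beside 24.3% DE and higher and 21.6% DE and lower among all genes tested. The split followed the scaling: with library totals in place of TMM factors, which raises the median of all genes tested from 0.08 to 0.61, there were 23 higher and 1 lower calls. PSENEN, DTX4, MAML2 and SPEN, described next as DE and lower, then had log2 fold changes of -0.88, -0.86, -0.69 and -0.90 and were not DE.

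The enzymes that mature and cut the receptor were mostly not DE. Of 13 tested genes for receptor cleavage and glycosylation 0 were DE and higher and 1 was DE and lower by edgeR, and the median of their log2 fold changes was -0.15. The DE gene was PSENEN, a subunit of gamma-secretase, which fell from an NRC of 2731 and 2599 in neoSFs to 815 to 1108 in monoiPSCs (log2 fold change -1.40, SE 0.16, adjusted p = 0.000295, edgeR). NCSTN, named after its values were seen, was not DE at a log2 fold change of -0.80 (adjusted p = 0.0157, edgeR). Of the 14 genes of this role in the tables, 5 had all monoiPSC libraries below both neoSF libraries, 1 had them above and 8 overlapped. These counts stand beside 37.1% below and 36.1% above of all genes tested. For the proteases of the outer cut, the log2 fold change was -0.72 for ADAM17 (adjusted p = 0.00689, edgeR) and -0.42 for ADAM10 (adjusted p = 0.0529, edgeR). Both were under the 2-fold threshold, and neither gene was DE. Of the fringe glycosyltransferases, which tune the response of the receptor to Delta-like and Jagged ligands, LFNG had a log2 fold change of 0.68 (adjusted p = 0.0651, edgeR), and MFNG had 0 counts in neoSFs and an NRC of 15.4 to 78.5 in monoiPSCs, too low in FD2M1 at passage 25 to be tested.

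Of 12 tested genes for the turnover of ligands and receptors 2 were DE and higher and 1 was DE and lower. One of the higher genes, NEURL1, passed the filter through the monoiPSCs alone. NEURL1, whose protein is a ubiquitin ligase for ligands, had 0 counts in neoSFs and an NRC of 27.5 to 85.7 in monoiPSCs. Its fitted log2 fold change against these 0 counts was 9.17 (SE 1.58, adjusted p = 0.00281, edgeR). Against the floor of 3 counts, a limit that was not itself tested, NEURL1 was at least 9.40-fold higher in the mean and 5.07-fold in the lowest library. Its relative NEURL1B had a log2 fold change of 1.44 (SE 0.39, adjusted p = 0.0142, edgeR), which was no longer DE without the LSD1 neoSFs, at 0.94 (adjusted p = 0.0566), nor with the passages of each line summed (adjusted p = 0.0543). DTX4, which encodes a Deltex ubiquitin ligase that acts on NOTCH, fell by 1.38 on the log2 scale (SE 0.21, adjusted p = 0.00104, edgeR). MIB1, the main ubiquitin ligase for ligand endocytosis, had a log2 fold change of 0.51 (adjusted p = 0.0472, edgeR). Being under the 2-fold threshold, it was not DE.

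In the nucleus, RBPJ, the DNA-binding partner of the receptor fragment, had an NRC of 2155 and 2071 in neoSFs and 2069 to 2500 in monoiPSCs. The ranges of RBPJ overlapped, and its log2 fold change was 0.17 (SE 0.14, adjusted p = 0.308, edgeR). Of the 10 tested genes of the nuclear complex and its coactivators the coactivator MAML2 was the single DE gene and fell by 1.21 on the log2 scale (SE 0.16, adjusted p = 0.000616, edgeR). MAML1, which has the same function, had a log2 fold change of 0.51 (adjusted p = 0.0195, edgeR). It was under the 2-fold threshold and so not DE.

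Of the corepressors, 5 of 10 tested genes were DE and higher and 1 was DE and lower, beside 24.3% and 21.6% of all genes tested. Their median log2 fold change was 0.91. TLE1, a Groucho corepressor that HES and HEY proteins recruit, rose from an NRC of 538 and 591 in neoSFs to 1863 to 3325 in monoiPSCs (log2 fold change 2.34, SE 0.30, adjusted p = 0.000487, edgeR). The histone deacetylase HDAC1 rose by 2.16 on the log2 scale (SE 0.24, adjusted p = 0.000251, edgeR). HDAC2, CTBP2 and TLE3, named after their values were seen, had log2 fold changes of 1.56, 1.26 and 1.59. SPEN, which encodes a corepressor that binds RBPJ, fell by 1.42 (SE 0.22, adjusted p = 0.00123, edgeR). These corepressors serve many transcription factors besides those of the NOTCH pathway.

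Of the other HES and HEY genes and targets, 6 could be tested and 3 were DE and higher, beside 24.3% of all genes tested. Among these 3, HEY2 passed the filter through the monoiPSCs alone. HEY2, a relative of HEY1, had an NRC of 60.7 in the FD2M1 and 19.0 in the LSD1 neoSFs, and of 182 and 206 in the FD2M1 and 381 and 389 in the LSD1 monoiPSCs at passages 15 and 25. As for DLL1, both LSD1 libraries of HEY2 lay above both FD2M1 libraries, which 43.5% of all genes did in either direction. The log2 fold change of HEY2 between neoSFs and monoiPSCs was 2.98 (SE 0.60, adjusted p = 0.00384, edgeR), with 4.01 without the FD2M1 and 2.36 without the LSD1 neoSFs. HES6, which encodes an inhibitor of HES1 known from neuronal differentiation, rose by 2.68 (SE 0.27, adjusted p = 0.00016, edgeR), and NRARP, a feedback inhibitor induced by NOTCH and named after its values were seen, rose from an NRC of 64.9 and 68.5 to 296 to 434 (log2 fold change 2.47, adjusted p = 0.000289, edgeR). HES5, HES7 and HEYL were not DE, with log2 fold changes of 1.20, -0.96 and -0.88. HES5, a target known from neural progenitors, had an NRC of 40.3 and 24.0 in neoSFs and 46.2 to 113 in monoiPSCs.

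**Figure D5:**
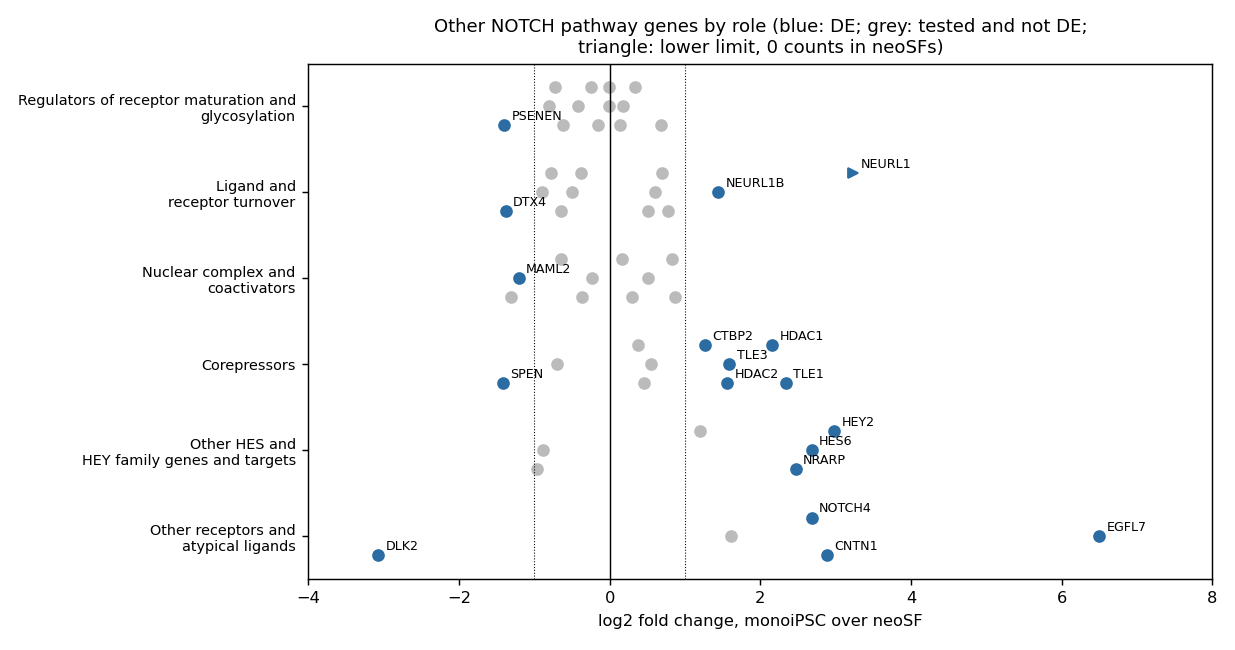
Each symbol is a tested gene of the wider list, placed by its role and its log2 fold change of monoiPSCs over neoSFs (blue: DE; grey: not DE; the triangle is the lower limit of NEURL1, which had 0 counts in neoSFs). Genes for receptor maturation cluster between -1.40 and 0.68, while 5 corepressors and 3 HES, HEY and target genes are DE to the right of the dotted 2-fold line, where the grey point beside them is HES5 at 1.20.

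Of 5 tested genes for other receptors and atypical ligands, 3 were DE and higher and 1 was DE and lower. The shares of all genes tested were 24.3% and 21.6%. EGFL7 and CNTN1 passed the filter through the monoiPSCs alone and DLK2 through the neoSFs alone, so these counts and shares do not cover the same kind of genes. NOTCH4, named after its values were seen, rose from an NRC of 96.8 and 28.0 in neoSFs to 352 to 401 in monoiPSCs (log2 fold change 2.68, SE 0.47, adjusted p = 0.00205, edgeR). Without the FD2M1 neoSFs its log2 fold change was 3.80, and without the LSD1 neoSFs it was 2.04. EGFL7, a secreted protein of vessels that can bind NOTCH receptors, rose by 6.50 (SE 1.17, adjusted p = 0.00229, edgeR), from an NRC of 0 in the FD2M1 and 8.98 in the LSD1 neoSFs. The size of the change of EGFL7 depended on these few counts, with 12.43 without the LSD1 and 5.62 without the FD2M1 neoSFs. CNTN1, a neuronal adhesion molecule reported as an atypical ligand, had a log2 fold change of 2.89 (adjusted p = 0.0238, edgeR), which was not DE without the FD2M1 neoSFs (2.06, adjusted p = 0.0785) and became 5.62 without the LSD1 neoSFs. Its adjusted p was 0.0507 without LSD1 monoiPSCs at passage 15, and also when the passages of a line were summed. DLK2, an atypical ligand that inhibits NOTCH, fell by 3.07 (SE 0.47, adjusted p = 0.00106, edgeR).

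Markers of cell types in which these genes are known were measured beside them. Of 10 neural progenitor and neuron markers 7 could be tested. By edgeR 6 of these were DE and higher and 0 DE and lower, beside 24.3% and 21.6% of all genes tested. NEUROG1, NEUROG2, ELAVL3 and NHLH1 passed the filter through the monoiPSCs alone, so these counts and shares do not cover the same kind of genes. The summed NRC of the list was 7312 and 25810 in neoSFs and 7336 to 16610 in monoiPSCs, most of it from NES, at 6143 and 24780 in neoSFs and 4225 to 10430 in monoiPSCs. LSD1 at passage 25, the library with the highest DLL1, DLL3, DLL4 and JAG2, was the highest monoiPSC library for 5 of the 10 markers and the lowest for 3. The 5 were NES, NEUROG2, NHLH1, ELAVL3 and TUBB3, the last at an NRC of 3414 there and 3171 in FD2M1 at passage 15. The 3 were PAX6, SOX1 and DCX, at an NRC of 2.06, 18.0 and 1170, the last close to the 1175 in FD2M1 at passage 25.

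Of 7 presomitic mesoderm and somite markers 3 could be tested. MEOX1 and PAX3 were DE and higher, at an NRC of 41.6 to 81.6 and 89.8 to 307 in monoiPSCs. Both passed the filter through the monoiPSCs alone. TBX6 had an NRC of 86.2 and 154 in neoSFs and 51.3 to 104 in monoiPSCs and was not DE. MSGN1, TBXT, MESP2 and RIPPLY2 stayed at or below an NRC of 8.79 in all libraries. The summed NRC of this list was 100.4 and 164 in neoSFs against 211 to 433 in monoiPSCs. The part of neural or presomitic cells in the values of DLL1 and DLL3 was not tested.

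Of 7 endothelial markers 3 could be tested. TIE1 was DE and higher, at an NRC of 333 to 583 in monoiPSCs, VWF was DE and lower, at 6.17 to 11.9, and KDR was not DE, at 47.3 to 113. Of the others, ERG was at 0 in the monoiPSCs, and CDH5, TEK and PECAM1 reached an NRC of at most 1.26, 10.0 and 16.3 there. TIE1 passed the filter through the monoiPSCs alone and VWF through the neoSFs alone. The summed NRC of the list was 228 and 283 in neoSFs and 427 to 685 in monoiPSCs. In the monoiPSCs it came mostly from TIE1, which had an NRC of 1.95 in the FD2M1 and 0 in the LSD1 neoSFs.

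Of 6 mural cell markers 5 could be tested. ACTA2 and CSPG4 were DE and lower, at an NRC of at most 5.02 and 104.5 in monoiPSCs, whereas MCAM was DE and higher, from 315 and 38.6 in neoSFs to 602 to 2628. DES and MYH11 were not DE, and DES was highest in LSD1 at passage 25, at an NRC of 4213. RGS5, which was not tested, had an NRC of 4.88 and 6.24 in neoSFs and 6.59 to 42.8 in monoiPSCs. The summed NRC of the list, 63150 and 102200 in neoSFs and 1307 to 7066 in monoiPSCs, came mostly from ACTA2 in neoSFs, at 48570 and 96300. The part of endothelial or mural cells in the values of DLL4, NOTCH4, EGFL7 and NOTCH3 was not tested. The 3 keratinocyte markers in the tables summed to an NRC of 56.6 and 156 in neoSFs and 0 to 6.74 in monoiPSCs, and the 3 blood markers to 98.2 and 113 in neoSFs and at most 40.01 in monoiPSCs.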

How the data were processed

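RNA-seq libraries of 2 neoSF and 4 monoiPSC samples were analysed. As the authors describe, reads were aligned to MonDom5 and RefSeq transcripts with StrandNGS, filtered on read and mapping quality, and counted per gene. The submitters' processing notes also name bcl2fastq and DESeq. The authors deposited these counts per gene without normalization, and 86.8% of the values above 0 were not whole (tolerance 1e-06), so the deposited values are estimated counts, which were rounded here. A companion table deposited by the authors holds log2 values normalized with DESeq. The paper's methods name both a stranded technology and the TruSeq RNA kit v2 for neoSFs, the labels name that kit for all libraries, and whether counting used the strand is not given in the sources used here, so reads of a gene and an overlapping antisense gene may not be separated. A value of 0 there was read as an NRC of 0. Genes were matched by symbol, and 3 markers (KRT14, DCX, TBXT) by gene number through a RefSeq gene table of mMonDom1.pri. No coordinates were taken from that table, because its assembly differs from MonDom5.

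Genes reaching an NRC of 20 in each library of either group were tested with edgeR 4.0.16 (R 4.3.3, TMM, glmQLFit and glmQLFTest) without a block. The standard error is the log2 fold change divided by the square root of F. DESeq2 1.42.0, limma 3.58.1, other scalings and filters, left-out libraries and a strain block were alternatives, and the scripts were tested on simulated counts. Strain links each monoiPSC line to the fibroblast culture it came from. Over the 13072 tested genes the deviations of the FD2M1 libraries from their group means had a correlation of 0.0402 between neoSFs and monoiPSCs. For a gene with at most 3 counts in every library of a group, that group was set to 1 floor. This floor was the level of 3 counts in the library of the group where these weigh most. Depth per library is given with the results, and a gene near the floor is measured less precisely in the shallower neoSFs.

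Named genes are the listed NOTCH genes and, of each role in the wider list, the DE genes with the 2 largest and the 2 smallest log2 fold changes. Of the others, NCSTN, HDAC2, CTBP2, TLE3, NRARP and NOTCH4 are marked as named after their values were seen. ADAM10, ADAM17, LFNG, MFNG, MIB1, RBPJ, MAML1, HES5, HES7 and HEYL were also named outside this rule, by choice, and carry no mark. The genes, lists and tests were chosen with earlier results of these data known.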

Additional observations from a re-analysis of the deposited data

Results flagged for a closer look

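The NRC of EGFL7 was 982 in LSD1 monoiPSCs at passage 25, far from the other 3 monoiPSC libraries, at 206, 273 and 312. The gap to the nearest of them exceeded Dixon's 95% critical value for 4 samples. Such a gap is reached by chance in about 1 of 20 groups, and 22 genes were examined in this way. Of the listed NOTCH genes DLL3 came closest, with an NRC of 696 in the same library against 231 to 316 in the others, and it stayed under the critical value.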

How the results depend on the processing

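Of the listed NOTCH genes, 7 were DE, and the count was 6 to 8 over 14 alternatives and 6 to 8 with each library left out. The 8 tested genes gave 112 alternative values, of which 108 kept direction and call, 2 lost the call (NOTCH3), 2 gained it (JAG1) and 0 reversed. JAG1 was DE without the FD2M1 neoSFs and, at a log2 fold change of 1.28, with library totals, a scaling chosen after seeing the data. The wider list had 16 to 24 DE genes against 18, and of 252 values of its DE genes 243 kept direction and call and 9 lost the call. With the strain as a replicate block the counts were 7 and 18, and the block changed no call of a listed gene. With each library left out, 0 to 1 genes were DE between passages (DLL3) and 0 to 0 between lines, where DESeq2 called 1 (DLL1). With the covariate dropped (no replicate block), 0 were DE in either. A fit of passage or line without 1 library and with its covariate has no residual degree of freedom, so the covariate was dropped there. Shares per gene length were not run, since transcript lengths were not used here. Adding NOTCH4 to the receptor reads moved the mean share of NOTCH2 from 20.4% to 19.2% in monoiPSCs. In neoSFs, 6 to 32 counts of DLL1 and HEY1 limit how precisely their fold changes are known.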
